A study of Mus musculus with 4 samples.

Results

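Fos, Fosb, Fosl2, Jun, Junb, Jund, Atf3, Ier2, Dusp1 and Zfp36, subunits of the transcription factor AP-1 and other immediate-early genes, were followed as 10 of the 32285 genes counted in 4 droplet single-cell RNA libraries of mouse thymocytes. They were chosen by name and not by a cut on their values, with earlier results of these data known. All mice were C57BL/6J and 3 weeks old, and the thymi of 4 animals were pooled for a preparation. After depletion of CD8-bearing cells, live CD4+ HSA+ CD73- thymocytes were sorted as CD25+ or CD25-, which gave 4 groups with 1 library each: PD-1 knockout CD25+, wild-type (WT) CD25+, PD-1 knockout CD25- and WT CD25-. PD-1, encoded by Pdcd1, is an inhibitory receptor that damps T cell receptor signalling, HSA marks immature thymocytes, and the CD25+ gate was set for regulatory T cells (Tregs) with their CD25+ progenitors. The labels do not say if both gates of a genotype were sorted from 1 pool. With 1 library a group there was no replicate and no test, and every interval below is a 95% interval that covers counting error only.

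AP-1 is a dimer of a Jun protein with a Jun, Fos or ATF protein, and it binds short palindromic DNA motifs. Immediate-early genes are transcribed within minutes of a signal from factors that the cell already holds, and their transcripts are short-lived. In thymocytes the T cell receptor and its precursor, the pre-TCR, induce them through MAP kinases and calcium, but cell dissociation, heat and other handling induce the same genes in many tissues. The levels were therefore set out by cell class, by mitochondrial share and UMI count of the cells, and by other TCR-response or heat shock transcripts in the same cells.

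The members lie on 7 chromosomes (mouse build mm10, GENCODE vM21 annotation). Fos is at chr12:85473890-85477273 on the plus strand, Fosb at chr7:19302696-19310051 on the minus strand and Fosl2 at chr5:32135801-32157842 on the plus strand. Jun is at chr4:95049034-95052222 on the minus strand, Junb at chr8:84974484-84978718 on the minus strand and Jund at chr8:70698949-70700616 on the plus strand. Atf3 is at chr1:191170296-191218039, Ier2 at chr8:84661331-84662852, Dusp1 at chr17:26505590-26562128 and Zfp36 at chr7:28376784-28380253, all on the minus strand. Promoter sequences were taken from RefSeq (GRCm38.p6, the build of mm10), which matched all members but Ier2, 9 of 10.

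The bases upstream of the annotated start are printed 5′ to 3′ for 3 members: Jun and Fos, which form the classic AP-1 dimer and whose levels were higher in Ptcra than in other CD4 cells, and Dusp1, the feedback phosphatase. They are Fos (chr12:85473640-85473889, plus strand, 250 bases), Jun (chr4:95052223-95052472, minus strand, 250 bases) and Dusp1 (chr17:26508520-26508722, minus strand, 203 bases, the 47 bases nearest the start being left out because they lie in an annotated exon). Capitals mark a match to TGACNTCA, the AP-1 and CREB site form, which includes TGACGTCA, the cyclic AMP response element (CRE).
Fos: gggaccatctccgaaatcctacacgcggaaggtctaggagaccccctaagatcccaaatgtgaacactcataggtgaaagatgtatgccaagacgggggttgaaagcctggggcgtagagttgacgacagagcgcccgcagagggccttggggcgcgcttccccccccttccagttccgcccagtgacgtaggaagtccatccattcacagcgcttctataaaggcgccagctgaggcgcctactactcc
Jun: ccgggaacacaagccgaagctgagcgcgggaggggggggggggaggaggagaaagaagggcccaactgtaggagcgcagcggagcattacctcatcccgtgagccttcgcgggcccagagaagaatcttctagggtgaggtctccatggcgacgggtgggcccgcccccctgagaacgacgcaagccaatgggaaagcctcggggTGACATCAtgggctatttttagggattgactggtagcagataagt
Dusp1: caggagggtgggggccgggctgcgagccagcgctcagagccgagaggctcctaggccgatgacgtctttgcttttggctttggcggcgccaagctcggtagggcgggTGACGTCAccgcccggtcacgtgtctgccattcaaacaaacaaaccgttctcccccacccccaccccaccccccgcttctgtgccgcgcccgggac

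Both strands of the 250 bases before the start in the promoter entry were searched. That start was not always the edge of the gene span given above. The Jund window (chr8:70697489-70697738) ended well before the gene start, so its letters do not describe the bases next to it. The windows of Fosl2, Atf3, Dusp1 and Zfp36 lay inside the gene span. The Jun promoter held TGACATCA from position -45 to -38 before the start, the Dusp1 promoter held TGACGTCA from -143 to -136, and the Fos window held no match to any of the AP-1, CRE or CArG forms. None of the 9 windows held TGANTCA, the short AP-1 site, which occurred in 6.75% of the 32851 promoters in the table. TGACNTCA occurred in 7.49% of all promoters and TGACGTCA in 1.55%. Zfp36 had a match to the CArG box, the site of serum response factor, from -58 to -49, a form present in 1.47% of promoters. Of the commoner elements searched, CCAAT stood in the Jun window from -65 to -61 and in the Junb window from -36 to -32 (33.8% of promoters), and the GC box GGGCGG in 7 of the 9 windows, those of Junb and Jund lacking it (32.7% of promoters). A match describes these letters only.

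Cells were put in classes by transcripts of the genes that define the populations. Foxp3 cells had at least 1 UMI of Foxp3, the Treg transcription factor, and numbered 389 in the knockout-labelled CD25+ library, 679 in the WT CD25+ library, 59 in the knockout-labelled CD25- library and 51 in the WT CD25- library. Other CD4 cells had no Foxp3 UMI and at least 1 UMI each of Cd4 and Trac, the constant region of the TCR alpha chain, and numbered 244 in the knockout-labelled CD25+, 425 in the WT CD25+, 739 in the knockout-labelled CD25- and 1079 in the WT CD25- library. Ptcra cells had no Foxp3 or Cd4 UMI and at least 1 of Ptcra, the alpha chain of the pre-TCR, and numbered 6586 and 4791 in the knockout-labelled and WT CD25+ libraries, 0 in the knockout-labelled CD25- library and 2 in the WT CD25- library. The 2017, 1754, 918 and 1853 remaining cells of the knockout-labelled CD25+, WT CD25+, knockout-labelled CD25- and WT CD25- libraries lacked the transcripts to be placed. A class that needs 1 UMI of a gene favours deeper cells, and the genes that define a class are no findings.

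Ptcra cells made up most of both CD25+ libraries although the sort was for CD4+ cells. Levels are given as CPM, a gene's UMIs scaled to 1000000 UMIs of the class. The 12 double-negative thymocyte markers summed to 1699 and 1213 CPM in Foxp3 cells of the knockout-labelled and WT CD25+ libraries, to 351.2 and 197.9 CPM in other CD4 cells, and to 4482 and 5399 CPM in Ptcra cells, where all 12 were detected. Rag1, a recombinase gene of immature thymocytes, stood at 308.3 and 351.9 CPM in the Ptcra cells. Foxp3 cells of these libraries had 3565 and 4045 CPM of the 9 Treg markers, all of which were detected in both. The list holds Foxp3, which defines the class (449.9 and 574.1 CPM), and Il2ra, the gene of CD25 (793.4 and 707.3 CPM). Il2ra is also on the double-negative list. Other CD4 cells of these libraries had 1703 and 1382 CPM of the Treg list. Their Ptcra cells had 1492 and 1733 CPM, of which Il2ra made 1259 and 1502 CPM. In the CD25- libraries the Treg list summed to 1200 and 1303 CPM in Foxp3 cells and to 373.7 and 297.5 CPM in other CD4 cells. B cell (0 to 88.01 CPM), erythroid (at most 3.521 CPM) and myeloid markers (81.73 to 205.2 CPM) were low in every class, with Lyz2 at 21.3 and 31.7 CPM in Ptcra cells of the knockout-labelled and WT libraries and at most 3.70 CPM elsewhere. Epithelial and stromal markers summed to 75.32 to 275.8 CPM. Markers of gamma-delta and innate-like cells ranged from 7.621 CPM to 746.2 CPM, and the double-positive thymocyte list, which shares genes with the double-negative one, from 37.95 to 1181 CPM, each highest in Ptcra cells of the WT CD25+ library. The alpha-beta T cell list summed to 5185 to 8047 CPM in every class, the highest being Ptcra cells of the WT library. In Ptcra cells of both CD25+ libraries only 6 of its 10 markers reached 20 CPM. Trac stood there at 1.34 and 1.15 CPM in the knockout-labelled and WT library, and Cd4 was absent by the class rule.

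Pdcd1 itself was present under the knockout label: in other CD4 cells of the CD25+ gate the knockout-labelled library had 72.6 CPM and WT 40.5 CPM, and in those of the CD25- gate 28.8 and 15.7 CPM. Foxp3 cells of the CD25+ gate had 22.2 CPM under the knockout label against 24.0 CPM in WT, and those of the CD25- gate 5.84 CPM (2 UMIs) against 17.7 CPM (4 UMIs). Ptcra cells of the knockout-labelled and WT CD25+ libraries had 8.01 and 7.14 CPM. The labels do not say which part of the gene was deleted, so 5′ reads cannot check the genotype. After filtering, 9236 cells with 68989300 UMIs were kept in the knockout-labelled CD25+ library, 7649 with 54064164 in the WT CD25+ library, 1716 with 11159298 in the knockout-labelled CD25- library and 2985 with 13580881 in the WT CD25- library. Library pairs shared 4 to 96 cell barcodes. The CD25- libraries stood apart in Gm42418, a locus that overlaps ribosomal RNA: it took 14870 and 25420 CPM of other CD4 cells in the knockout-labelled and WT CD25- libraries and 4295 to 7532 CPM in all classes of the CD25+ libraries.

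Jun, the founding subunit of AP-1, differed widely between the classes. In Foxp3 cells it stood at 167 CPM (150 to 185) in the knockout-labelled CD25+ library, 201 (186 to 217) in the WT CD25+ library, 43.8 (24.5 to 72.2) in the knockout-labelled CD25- library and 120 (78.8 to 174) in the WT CD25- library. Other CD4 cells had 30.1 CPM (23.1 to 38.7) in the knockout-labelled CD25+, 43.6 (36.7 to 51.5) in the WT CD25+, 44.2 (39.1 to 49.9) in the knockout-labelled CD25- and 71.4 (65.2 to 78.0) in the WT CD25- library. Ptcra cells had 354 CPM (348 to 359) in the knockout-labelled and 534 (526 to 542) in the WT CD25+ library. Within each CD25+ library the order was Ptcra cells, Foxp3 cells and other CD4 cells, with no overlap of intervals. With every cell thinned to 1500 UMIs, Jun was seen in 17.4% and 20.1% of Foxp3 cells of the knockout-labelled and WT CD25+ libraries, in 4.98% and 6.40% of other CD4 cells and in 39.0% and 50.8% of Ptcra cells. Unthinned, these shares were 36.5% and 39.6% of Foxp3, 13.9% and 20.2% of other CD4 and 72.1% and 83.1% of Ptcra cells. No class here is known to lack the gene, so no share of background was available.

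**Figure D1:**
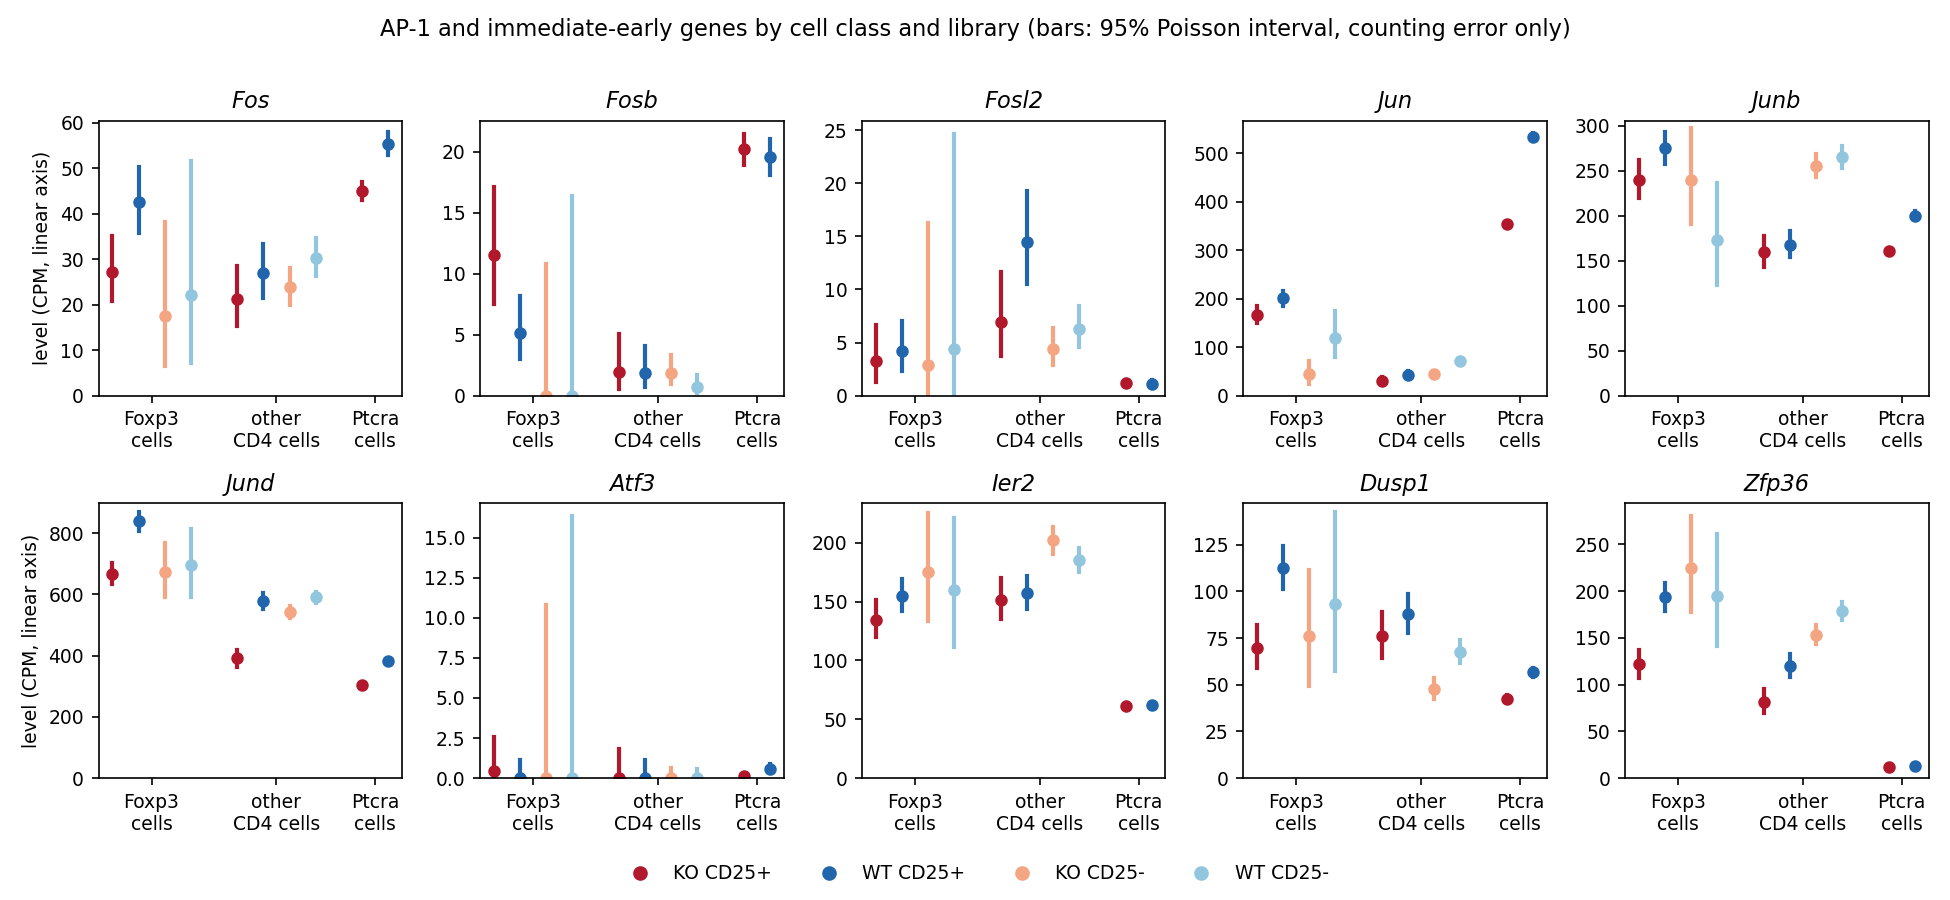
Level of each of the 10 genes in CPM (linear axes from 0) in Foxp3, other CD4 and Ptcra cells of the knockout-labelled CD25+, WT CD25+, knockout-labelled CD25- and WT CD25- libraries, with 95% Poisson intervals. Jun stood at 30.1 and 43.6 CPM in other CD4 cells and at 354 and 534 CPM in Ptcra cells of the knockout-labelled and WT CD25+ libraries, while Zfp36 and Ier2 were lowest in Ptcra cells of these libraries.

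Fos, the partner that forms the classic heterodimer with Jun, was also highest in Ptcra cells. Foxp3 cells had 27.3 CPM (20.8 to 35.2) in the knockout-labelled and 42.6 (35.9 to 50.2) in the WT CD25+ library, other CD4 cells 21.2 (15.4 to 28.6) and 27.0 (21.6 to 33.3), and Ptcra cells 45.0 (43.1 to 46.9) and 55.4 (53.0 to 58.0). In the CD25- libraries other CD4 cells had 23.8 CPM (142 UMIs) in the knockout-labelled and 30.3 (207 UMIs) in the WT library, close to the other CD4 cells of the CD25+ gate. Foxp3 cells of the CD25- gate gave only 6 and 5 Fos UMIs. A Fos UMI was found in 2.95% and 4.71% of thinned Foxp3 cells, 2.49% and 3.08% of other CD4 cells and 6.48% and 8.21% of Ptcra cells of the knockout-labelled and WT CD25+ libraries. Unthinned, the shares were 9.77% and 12.5% of Foxp3, 11.5% and 13.7% of other CD4 and 18.4% and 22.5% of Ptcra cells.

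Fosb, a Fos family member with strong and brief induction, was low in other CD4 cells of either gate. In the knockout-labelled and WT CD25+ libraries it had 11.6 CPM (7.49 to 17.1) and 5.10 (2.97 to 8.17) in Foxp3 cells, 1.98 (0.538 to 5.06) and 1.88 (0.691 to 4.10) in other CD4 cells, and 20.2 (19.0 to 21.5) and 19.6 (18.1 to 21.1) in Ptcra cells. The knockout-labelled CD25- library gave 11 UMIs (1.84 CPM) and the WT one 5 (0.733 CPM) in other CD4 cells. Their Foxp3 cells gave 0, with upper interval bounds of 10.77 and 16.34 CPM. Fosl2, a Fos family member without the strong activation domain of Fos, was higher in other CD4 than in Ptcra cells, with 6.92 CPM (3.78 to 11.6) and 14.4 (10.6 to 19.2) in other CD4 cells of the knockout-labelled and WT CD25+ libraries and 1.17 and 1.07 CPM in Ptcra cells. Its Foxp3 cells gave 7 and 14 UMIs (3.24 and 4.20 CPM). In the CD25- libraries other CD4 cells had 4.36 and 6.30 CPM of Fosl2, and the Foxp3 cells gave 1 UMI each.

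Junb and Jund, the other two Jun proteins, were found in most cells of every class of the CD25+ libraries without thinning. Junb had 240.2 CPM (220 to 261.8) in the knockout-labelled and 274.9 (257.4 to 293.3) in the WT CD25+ Foxp3 cells, 159.6 and 167.8 CPM in the other CD4 cells, and 160.3 and 200.2 CPM in the Ptcra cells. Other CD4 cells of the CD25- gate stood at 255.6 CPM (242.9 to 268.7) in the knockout-labelled and 265.4 (253.3 to 277.9) in the WT library, above the CD25+ gate. Jund, which in most cells is expressed steadily, had 666.5 CPM (632.6 to 701.9) and 838.1 (807.3 to 869.8) in Foxp3 cells, 391.2 and 578.6 CPM in other CD4 cells and 304.4 and 382.8 CPM in Ptcra cells of the knockout-labelled and WT CD25+ libraries. In the CD25- libraries Jund was at 674.3 and 695.6 CPM in Foxp3 cells and 541.8 and 590.1 CPM in other CD4 cells. Jund was thus highest in Foxp3 cells and lowest in Ptcra cells of both CD25+ libraries.

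Atf3, a stress-induced factor that dimerises with Jun proteins, was almost undetected. Ptcra cells gave 6 UMIs (0.124 CPM, 0.0453 to 0.269) in the knockout-labelled and 19 (0.547 CPM, 0.330 to 0.855) in the WT library. There was 1 UMI in Foxp3 cells of the knockout-labelled CD25+ library and 0 in every other class and library compared. The upper interval bound was 0.5407 CPM in the largest of those at 0, the other CD4 cells of the WT CD25- library. It was 16.34 CPM in the smallest, the Foxp3 cells of that library.

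Ier2, a small nuclear immediate-early protein, and Dusp1, the phosphatase that switches off MAP kinases, were lowest in Ptcra cells of the CD25+ libraries. Ier2 had 134.7 and 154.8 CPM in Foxp3 cells, 151.7 and 157.4 CPM in other CD4 cells and 61.4 and 61.9 CPM in Ptcra cells of the knockout-labelled and WT libraries. In the CD25- gate Ier2 stood at 175.1 and 159.5 CPM in Foxp3 cells and at 201.9 CPM (190.7 to 213.7) and 185.3 (175.2 to 195.8) in other CD4 cells. Dusp1 had 69.9 and 112.5 CPM in Foxp3 cells, 76.1 and 87.8 in other CD4 cells and 42.5 and 56.6 in Ptcra cells of the knockout-labelled and WT CD25+ libraries. Its other CD4 cells in the CD25- libraries had 47.8 CPM (42.4 to 53.6) and 67.6 (61.5 to 74.0), and its Foxp3 cells 75.9 and 93.0 CPM from 26 and 21 UMIs.

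Zfp36 encodes tristetraprolin, which binds AU-rich elements of short-lived mRNAs and speeds their decay. It had 121.7 CPM (107.5 to 137.4) and 193.6 (178.9 to 209.1) in Foxp3 cells, 82.0 (70.0 to 95.5) and 119.8 (108.1 to 132.4) in other CD4 cells, and 12.3 (11.3 to 13.3) and 13.5 (12.3 to 14.8) in Ptcra cells of the knockout-labelled and WT CD25+ libraries. In the CD25- libraries the Foxp3 cells had 224.8 and 194.9 CPM, and the other CD4 cells 153.5 and 178.7 CPM. Ptcra cells were thus the low class for Zfp36 and the high class for Jun. The thinned shares of cells with a Zfp36 UMI gave the same order: 21.5% and 25.8% of Foxp3 cells, 12.5% and 15.6% of other CD4 cells and 2.03% and 2.13% of Ptcra cells (unthinned, 40.1% and 48.2%, 37.7% and 44.9%, and 7.02% and 7.54%).

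Set against Ptcra cells, other CD4 cells of the CD25+ gate had less Jun and Fos and more Zfp36, Ier2 and Dusp1. A gene entered a comparison with at least 20 CPM in either group and at least 20 UMIs over both, and a difference of at least 1.5-fold is called higher or lower, as a description of these libraries. In these other CD4 cells Jun was 11.7-fold lower (9.13 to 15.4) in the knockout-labelled and 12.2-fold lower (10.4 to 14.6) in the WT library, and Fos 2.12-fold and 2.06-fold lower. Zfp36 was 6.68-fold higher (5.59 to 7.95) and 8.85-fold higher (7.71 to 10.2), Ier2 2.47-fold and 2.55-fold, and Dusp1 1.79-fold (1.51 to 2.11) and 1.55-fold (1.36 to 1.76). Junb did not reach 1.5-fold, with ratios of 0.995 and 0.838, and Jund had ratios of 1.29 and 1.51. So 3 of 8 members that entered were higher and 3 lower in the knockout-labelled library, where 14.9% and 19.1% of all genes were, and 4 of 7 higher and 2 lower in the WT library, where 15.5% and 20.7% of all genes were. Fosb entered in the knockout-labelled library only through its level in Ptcra cells (4 UMIs in other CD4 cells, against 981 in Ptcra cells), as Zfp36 did through the other CD4 cells in both, so these members had to differ. Fosl2, Atf3 and, in the WT library, Fosb did not enter, and Fosl2 had ratios of 5.89 (3.03 to 10.7) in the knockout-labelled and 13.5 (8.59 to 21.5) in the WT library. The median log2 ratio of members was 0.18 in the knockout-labelled and 0.60 in the WT library, beside -0.02 and -0.07 over all genes that entered.

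The Jun difference depended in size on the cells kept, and not in direction. With likely doublets kept, its log2 ratio was -2.16 in the knockout-labelled and -2.81 in the WT library in place of -3.55 and -3.61. With cells admitted on a UMI of either Cd4 or Trac it was -1.62 and -2.28, and with every cell weighted equally it was -4.14 in the knockout-labelled library. Fos in the knockout-labelled library fell short of 1.5-fold lower with either Cd4 or Trac admitted (log2 ratio -0.42, against -1.08). Dusp1 in the WT library was 1.37-fold higher with cells weighted equally, and Jund in the WT library was under 1.5-fold in 5 of the alternatives. Beside these, Hspa1a, the stress-inducible HSP70 gene, had 9.88 and 14.4 CPM in other CD4 cells against 51.8 and 86.1 CPM in Ptcra cells of the knockout-labelled and WT libraries. Egr1, an immediate-early factor, was 3.77-fold and 3.12-fold higher in other CD4 cells, and Nr4a1, induced by TCR signals, 63.0-fold and 47.2-fold. Hspa1b had ratios of 0.267 and 0.319 and Gm42418 0.570 and 0.694. The median mitochondrial share was 2.16% and 2.00% in other CD4 cells and 3.05% and 2.94% in Ptcra cells. The part of handling stress in the class differences was not tested.

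Foxp3 cells had more Jun than the other CD4 cells of the same CD25+ library, 5.55-fold (4.22 to 7.40) in the knockout-labelled and 4.61-fold (3.83 to 5.57) in the WT library. Jund was 1.70-fold and 1.45-fold higher, Junb 1.51-fold and 1.64-fold, Zfp36 1.49-fold and 1.62-fold, and Fos 1.29-fold and 1.58-fold. Dusp1 (ratios 0.919 and 1.28) and Ier2 (0.888 and 0.984) were near 1. These gave 3 of 7 members higher in the knockout-labelled library and 4 of 7 in the WT library, where 11.8% and 9.35% of all genes were higher, and 0 lower, where 12.1% and 11.0% of all genes were. The members' median log2 ratio was 0.57 and 0.66, beside -0.06 and -0.04 over all genes that entered. Nr4a1 went the other way, with ratios of 0.209 and 0.491, and so did Egr1, with 0.679 and 0.826. Hspa1a had ratios of 3.14 and 1.62, Hspa1b 1.68 (below the low-value filter) and 1.07, and Gm42418 1.55 and 1.29. The median mitochondrial share was 2.01% and 1.97% in the Foxp3 cells. Fosb (5.86 and 2.71), Fosl2 (0.469 and 0.291) and Atf3 did not enter.

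Part of the Foxp3 class carried Ptcra transcripts. Those cells, 62 of 389 in the knockout-labelled and 40 of 679 in the WT CD25+ library, had 239 CPM (202 to 281) and 425 CPM (358 to 502) of Jun, against 138 CPM (121 to 158) and 176 CPM (161 to 192) in Foxp3 cells with no Ptcra UMI. Foxp3 cells with a Cd4 UMI had 119 CPM (97.7 to 143) and 151 CPM (134 to 170), against 203 CPM (179 to 230) and 258 CPM (233 to 285) in those without. In Foxp3 cells with no Ptcra UMI the log2 ratio of Jun to other CD4 cells was 2.20 and 2.01, and in Foxp3 cells with a Cd4 UMI 1.98 and 1.79; these subsets were chosen after seeing the data. The ratio was more sensitive to the other side: it was 1.31 and 1.62 with doublets kept, and 0.53 and 0.86 with either Cd4 or Trac admitted, which ends the 1.5-fold call in the knockout-labelled library. Fos in the WT library fell under 1.5-fold with cells weighted equally, with at least 2 Foxp3 UMIs, with either Cd4 or Trac admitted and in Foxp3 cells with a Cd4 UMI (ratios 1.24 to 1.37). Junb in the knockout-labelled library, at 1.51-fold, fell just under it in 4 of the alternatives (1.35-fold at the lowest).

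Between the gates, other CD4 cells from CD25+ libraries had less Junb than those from CD25- libraries. The ratio was 0.624 in the knockout-labelled pair and 0.632 in the WT pair. Zfp36 had ratios of 0.534 in the knockout-labelled and 0.671 in the WT pair, Jun 0.681 and 0.611, and Dusp1 1.59 and 1.30; Zfp36 and Dusp1 passed 1.5-fold in the knockout-labelled pair and Jun in the WT pair. Jund (0.722 and 0.981), Ier2 (0.751 and 0.850) and Fos (0.893 and 0.889) did not pass 1.5-fold. In the knockout-labelled pair 1 of 7 members was higher and 2 lower, where 13.4% and 11.9% of all genes were; in the WT pair 0 of 7 were higher and 2 lower, where 9.08% and 6.33% were. The median log2 ratio of members was -0.47 and -0.23, beside 0.02 and 0.01 over all genes. Fosl2, below the level to enter, had ratios of 1.59 and 2.29 (1.48 to 3.55 in the WT pair).

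For Jun the direction between gates was set by which cells were kept. Its log2 ratio of -0.71 in the WT pair became 0.12 with doublets kept and 0.65 with either Cd4 or Trac admitted. Junb came under 1.5-fold with cells weighted equally in both pairs (ratios 0.756 and 0.713), with doublets kept in the knockout-labelled pair (0.685) and with either Cd4 or Trac admitted in the WT pair (0.695). Dusp1 in the knockout-labelled pair came just short of the threshold with doublets kept and to 1.25-fold with either Cd4 or Trac admitted. Gm42418 differed far more between the gates than any member, with ratios of 0.289 and 0.205, Hspa1a had 0.404 and 0.467, Hspa1b 0.240 and 0.465, Egr1 0.663 and 0.999, and Nr4a1 3.09 and 2.27. The median mitochondrial share in the CD25- libraries was 2.10% and 1.92% for other CD4 cells and 2.17% and 1.97% for Foxp3 cells, each pair being the knockout-labelled and the WT library. Their part in the members' differences was not tested.

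Knockout-labelled cells were set against WT cells within each gate and class, with the pool of animals, the preparation and the genotype label inseparable in each, and with Pdcd1 giving no check of the label. In Foxp3 cells of the CD25+ gate, Dusp1 had a ratio of 0.621 (0.511 to 0.752), Zfp36 0.629 (0.543 to 0.727) and Fos 0.641 (0.465 to 0.874). All 7 members that entered were below 1, and these 3 were at least 1.5-fold lower, where 3.58% of all genes were (6.03% were higher). Jund had a ratio of 0.795 (0.746 to 0.848), Jun 0.832 (0.730 to 0.947), Junb 0.874 (0.783 to 0.974) and Ier2 0.870 (0.751 to 1.01). The median log2 ratio of members was -0.33, beside -0.03 over all genes. Fosb, below the level to enter, went the other way with 25 UMIs against 17 and a ratio of 2.27 (1.18 to 4.48). Of these Fosb UMIs, 19 against 2 lay in Foxp3 cells with a Ptcra UMI. In Foxp3 cells with no Ptcra UMI, a subset added after seeing the data, Fosb was not higher under the knockout label. It had 3.88 CPM there (6 UMIs, 1.424 to 8.446) against 4.999 CPM in WT (15 UMIs, 2.798 to 8.245).

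The Dusp1 and Zfp36 differences in Foxp3 cells shrank under narrower definitions of the class. With at least 2 Foxp3 UMIs the ratios were 0.719 and 0.759, without Ptcra-bearing cells 0.678 and 0.750, and with a Cd4 UMI 0.753 and 0.729. Fos kept 1.5-fold under these 3. Ptcra-bearing cells were 15.9% of the Foxp3 class under the knockout label and 5.89% in WT. Without them Junb was even, with 281.3 CPM under the knockout label against 283.9 CPM in WT, and so was Ier2 (160.4 against 164.0 CPM). Jund then had 820.7 CPM (776.2 to 867.1) against 886.8 (853.4 to 921.1), and Jun 138.4 (120.5 to 158.2) against 176.0 (161.3 to 191.6). Zfp36 was also under 1.5-fold with cells weighted equally (0.692). Among cells under 5% mitochondrial UMIs 3 of 7 members were lower, where 3.8% of all genes were (6.09% higher): Fos at 0.629, Dusp1 at 0.611 and Zfp36 at 0.635. Among cells with at least 3000 UMIs the 3 were at 0.646, 0.626 and 0.599, where 4.59% of all genes were lower and 6.58% higher. Below 3000 UMIs, with 17 against 42 UMIs, Dusp1 (0.570, 0.304 to 1.02) was 1 of 6 members lower, where 11.8% of all genes were (12.3% higher), Jun was at 0.954 and Ier2 at 1.38. Over all Foxp3 cells of the gate Nr4a1 had a ratio of 0.629, Egr1 0.597, Hspa1a 1.33, Hspa1b 0.713 and Gm42418 0.992, while below 3000 UMIs Egr1 was 3.59-fold higher (2.10 to 6.36) and Nr4a1 at 1.14.

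Other CD4 cells of the CD25+ gate showed the same sign for every member that entered, none of them past 1.5-fold. Jund had a ratio of 0.676 (0.621 to 0.735), Zfp36 0.685 (0.567 to 0.823), Jun 0.691 (0.503 to 0.941), Fos 0.788, Dusp1 0.866, Junb 0.951 and Ier2 0.963. Thus 0 of 7 were called, where 3.34% of all genes were higher and 3.86% lower. Their median log2 ratio was -0.34, beside -0.01 over all genes. Fosl2, which did not enter, had 14 UMIs against 46 and a ratio of 0.479 (0.243 to 0.888). Nr4a1 had a ratio of 1.48, Egr1 0.726, Hspa1a 0.685 (below the low-value filter), Hspa1b 0.456 (at least 1.5-fold lower) and Gm42418 0.823 in the same cells. Hspa1b passed the filter only through the WT cells (11.86 against 26.03 CPM), which set its direction.

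In Ptcra cells, the class with the most UMIs, Jun had a ratio of 0.663 (0.649 to 0.677) and was the single member of 7 past 1.5-fold, where 1.74% of all genes were lower and 2.3% higher. Dusp1 (0.750, 0.705 to 0.799), Jund (0.795), Junb (0.801) and Fos (0.811) were lower by less, and Ier2 (0.993) and Fosb (1.03) were even. Zfp36 (0.906) and Fosl2 (1.10) did not enter, nor did Atf3, whose 6 against 19 UMIs gave a ratio of 0.226 (0.0738 to 0.588). The median log2 ratio of members was -0.32, beside -0.06 over all genes. Jun lay so close to the threshold that 5 alternatives put it just under 1.5-fold, at ratios of 0.677 to 0.703: no mitochondrial cap, a total without mitochondrial, ribosomal and receptor genes, centring on the median gene, equal weights for cells, and at least 2 Ptcra UMIs. Within cells of 5% or more mitochondrial UMIs its ratio was 0.635, under 5% it was 0.633, under 3000 UMIs 0.742 and at 3000 or more 0.640. In cells of 5% or more mitochondrial UMIs Junb (0.615) and Dusp1 (0.656) also passed, giving 3 of 8 lower where 3.94% of all genes were.

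**Figure D2:**
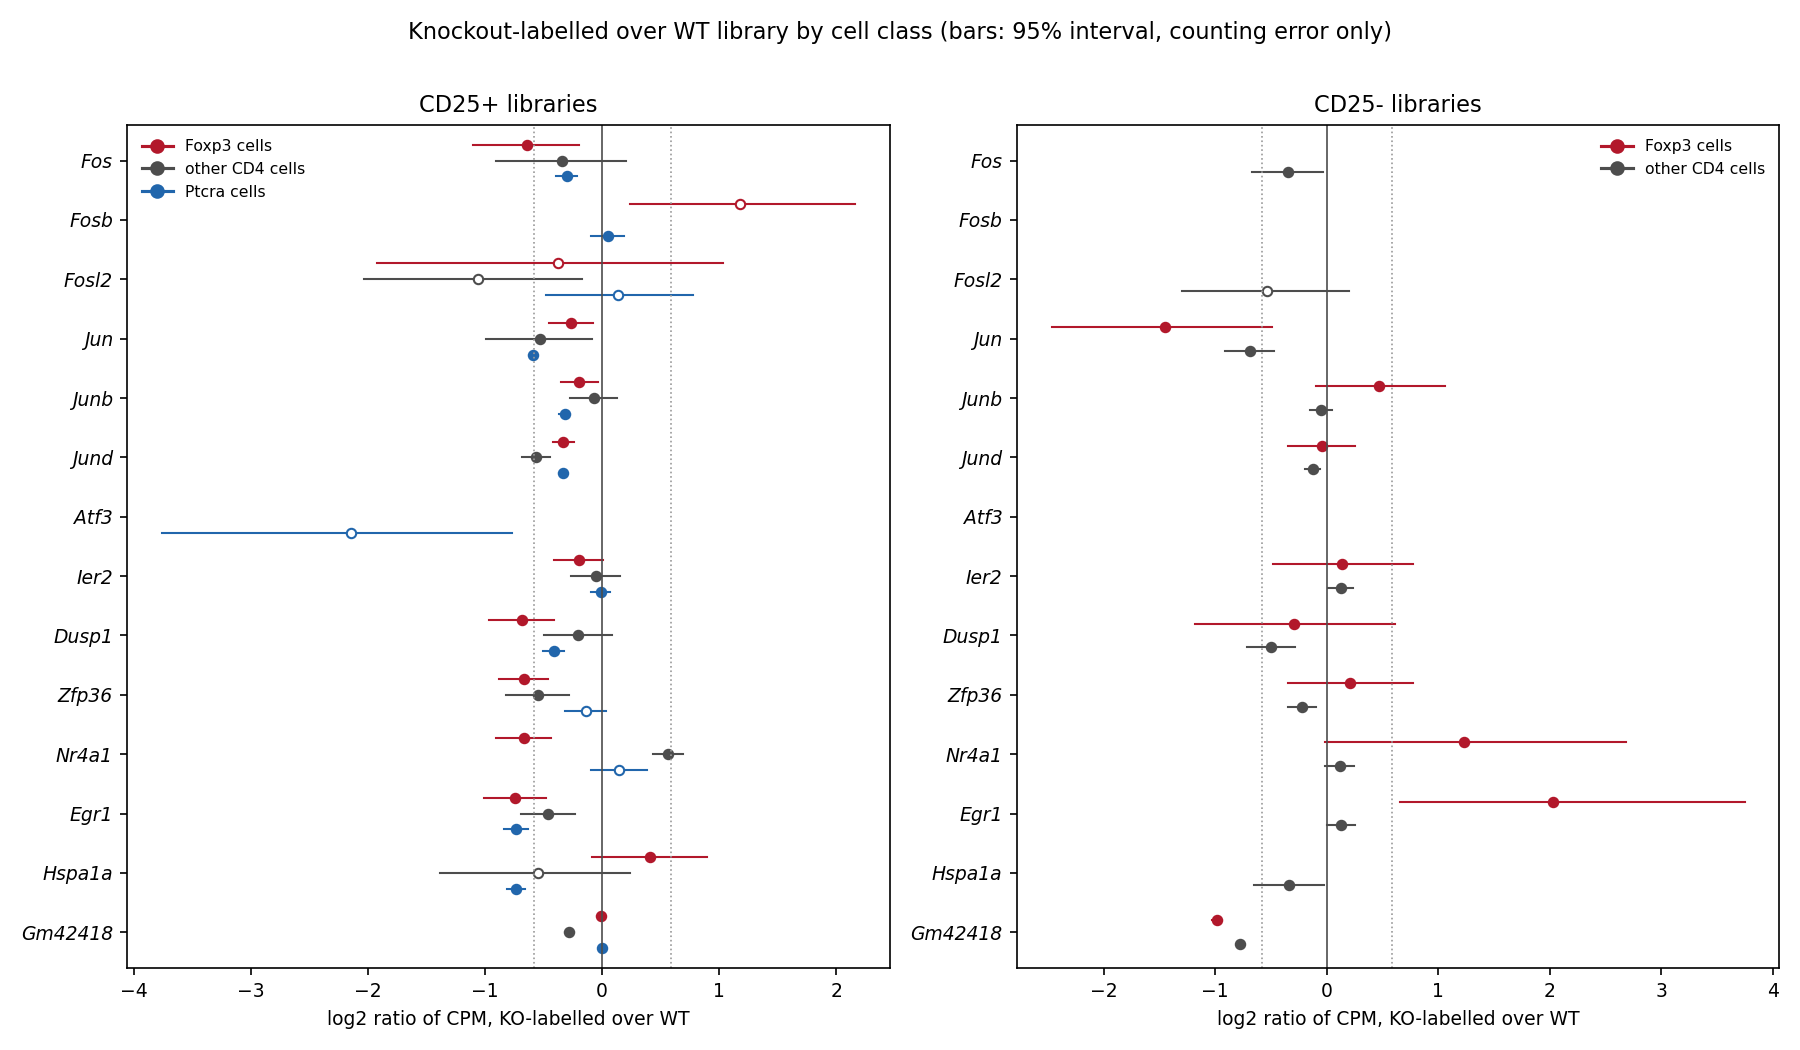
Log2 ratio of knockout-labelled over WT cells for the members and for Nr4a1, Egr1, Hspa1a and Gm42418, in the classes of the CD25+ gate (left) and the CD25- gate (right), with 95% counting intervals; filled points passed the filter of 20 CPM and 20 UMIs, open points did not, and dotted lines mark 1.5-fold. In the CD25+ gate the filled member points lie below 0, except Fosb in Ptcra cells at a ratio of 1.03.

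Heat shock genes differed between the same libraries. Of 11 that entered in Ptcra cells, 6 were at least 1.5-fold lower in the knockout-labelled library, with Hspa8, the constitutive HSC70 chaperone, at 483 CPM against 2699 CPM (log2 ratio -2.48), and in the same cells Hspa1a had a ratio of 0.602, Hspa1b 0.544, Egr1 0.601, Gm42418 1.00 and Nr4a1, below the low-value filter, 1.10. Hspa8 was the lowest of the list in every class, with log2 ratios of -2.07 in Foxp3 cells and -2.13 in other CD4 cells of the CD25+ gate, and -2.02 and -1.89 in the CD25- gate. Genotype, pool and preparation cannot be told apart here, and the part of heat shock or handling in the member ratios was not tested.

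The CD25- gate gave the same sign for Jun. In other CD4 cells Jun had a ratio of 0.620 (0.532 to 0.722), the single member of 7 past 1.5-fold, where 0.949% of all genes were lower and 2.51% higher; admitting either Cd4 or Trac brought it to 0.691. Dusp1 had 0.707 (0.608 to 0.821), Fos 0.784, Zfp36 0.859, Jund 0.918, Junb 0.963 and Ier2 1.09. The median log2 ratio was -0.22, beside -0.01 over all genes. Gm42418 was lower in the same cells, with a ratio of 0.585, and Egr1 (1.09), Nr4a1 (1.08), Hspa1a (0.791) and Hspa1b (0.883) did not pass 1.5-fold. Foxp3 cells of this gate were few: Jun had 15 against 27 UMIs and a ratio of 0.366 (0.181 to 0.713), 1 of 6 members lower where 14.1% of all genes were (12.2% higher). The other members that entered lay between ratios of 0.816 and 1.39, and with at least 2 Foxp3 UMIs the log2 ratio of Jun turned to 0.75. Egr1 was 4.09-fold higher (1.58 to 13.5, 31 against 5 UMIs) and Nr4a1 2.35-fold (0.989 to 6.44) in these Foxp3 cells, Gm42418 had a ratio of 0.506, and neither Hspa1b (6 against 4 UMIs) nor Hspa1a (1 against 2 UMIs) passed the low-value filter.

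Splitting the Ptcra cells by mitochondrial share separated high from low levels of every member that entered. Cells with 5% or more mitochondrial UMIs were 1009 of 6586 (15.3%) in the knockout-labelled and 569 of 4791 (11.9%) in the WT CD25+ library, and they were shallower, with medians of 2886 and 2784 UMIs against 6538 and 6407. Jun had 1154 CPM in the cells at or over 5% against 295.7 CPM under it in the knockout-labelled library, a ratio of 3.90 (3.76 to 4.05), and 1819 against 466.8 CPM in the WT library, a ratio of 3.90 (3.75 to 4.05). With cells thinned, 65.9% against 34.4% and 79.7% against 47.0% of cells had a Jun UMI (unthinned, 81.9% against 70.3% and 90.2% against 82.2%). The ratio of Jun was thus alike in both libraries although its level was not.

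Fos had 129.7 against 38.8 CPM in the knockout-labelled and 162.8 against 49.8 CPM in the WT library, 3.34-fold and 3.27-fold. The ratio was largest for Fosb, 5.43 and 6.31, and the rest were 2.35 and 3.10 for Junb, 2.33 and 2.33 for Jund, 2.56 and 2.90 for Dusp1, 1.62 and 1.98 for Ier2 and 1.78 and 2.03 for Zfp36. All 8 members that entered were higher in both libraries, where 25.4% and 25.7% of all genes were. Fosb and Zfp36, under 20 CPM below 5%, entered only through the cells where they were high and so had to differ, which leaves 6 members whose direction the filter did not set. The 8 members' median log2 ratio was 1.29 and 1.58, beside 0.20 and 0.17 over all genes. Fosl2 and Atf3 did not enter. Egr1 was 5.05-fold and 3.92-fold higher, Hspa1a 2.03-fold and 2.02-fold, and Gm42418 3.61-fold and 3.88-fold. Nr4a1, below the level to enter, had 7.92 against 7.44 CPM and 3.49 against 6.94 CPM, in the knockout-labelled and WT libraries.

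The split at 3000 UMIs gave the same picture. Ptcra cells under 3000 UMIs were 742 (11.3%) of the knockout-labelled and 466 (9.73%) of the WT library, with a median mitochondrial share of 6.58% and 6.80% against 2.93% and 2.85% in deeper cells. Jun had 1669 against 307.2 CPM and 2249 against 479.9 CPM, 5.43-fold and 4.69-fold, and Fos 165.4 against 40.7 CPM and 219.4 against 50.3 CPM, 4.06-fold and 4.37-fold. All 8 members that entered were higher in the shallower cells of both libraries, where 28.0% and 29.4% of all genes were, Fosb and Zfp36 again having entered only through those cells. Fosb was 6.32-fold and 6.49-fold higher, and the smallest ratios were those of Ier2 (2.13 and 2.37) and Zfp36 (2.48 and 2.02).

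Each split held within the other. Among cells with at least 3000 UMIs, 6 of 7 members in the knockout-labelled and 7 of 8 in the WT library were at least 1.5-fold higher at 5% or more mitochondrial UMIs, where 19.0% and 17.6% of all genes were, and Jun had 703.3 against 288.8 CPM (2.44-fold) and 1158 against 460.2 CPM (2.52-fold). Among cells under 5%, 7 of 8 and 7 of 7 were higher below 3000 UMIs, where 15.1% and 18.7% of all genes were, and Jun had 965.4 against 288.8 CPM (3.34-fold) and 1218 against 460.2 CPM (2.65-fold). Fosb, and Zfp36 where it entered, again passed the filter only through the cells where they were high. Ier2 was the exception, with ratios of 1.12 and 1.40 in the first setting and 1.19 in the knockout-labelled library in the second. In the second setting Hspa1a had ratios of 0.951 in the knockout-labelled and 1.24 in the WT library, and Hspa1b 1.13 and 2.70.

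**Figure D3:**
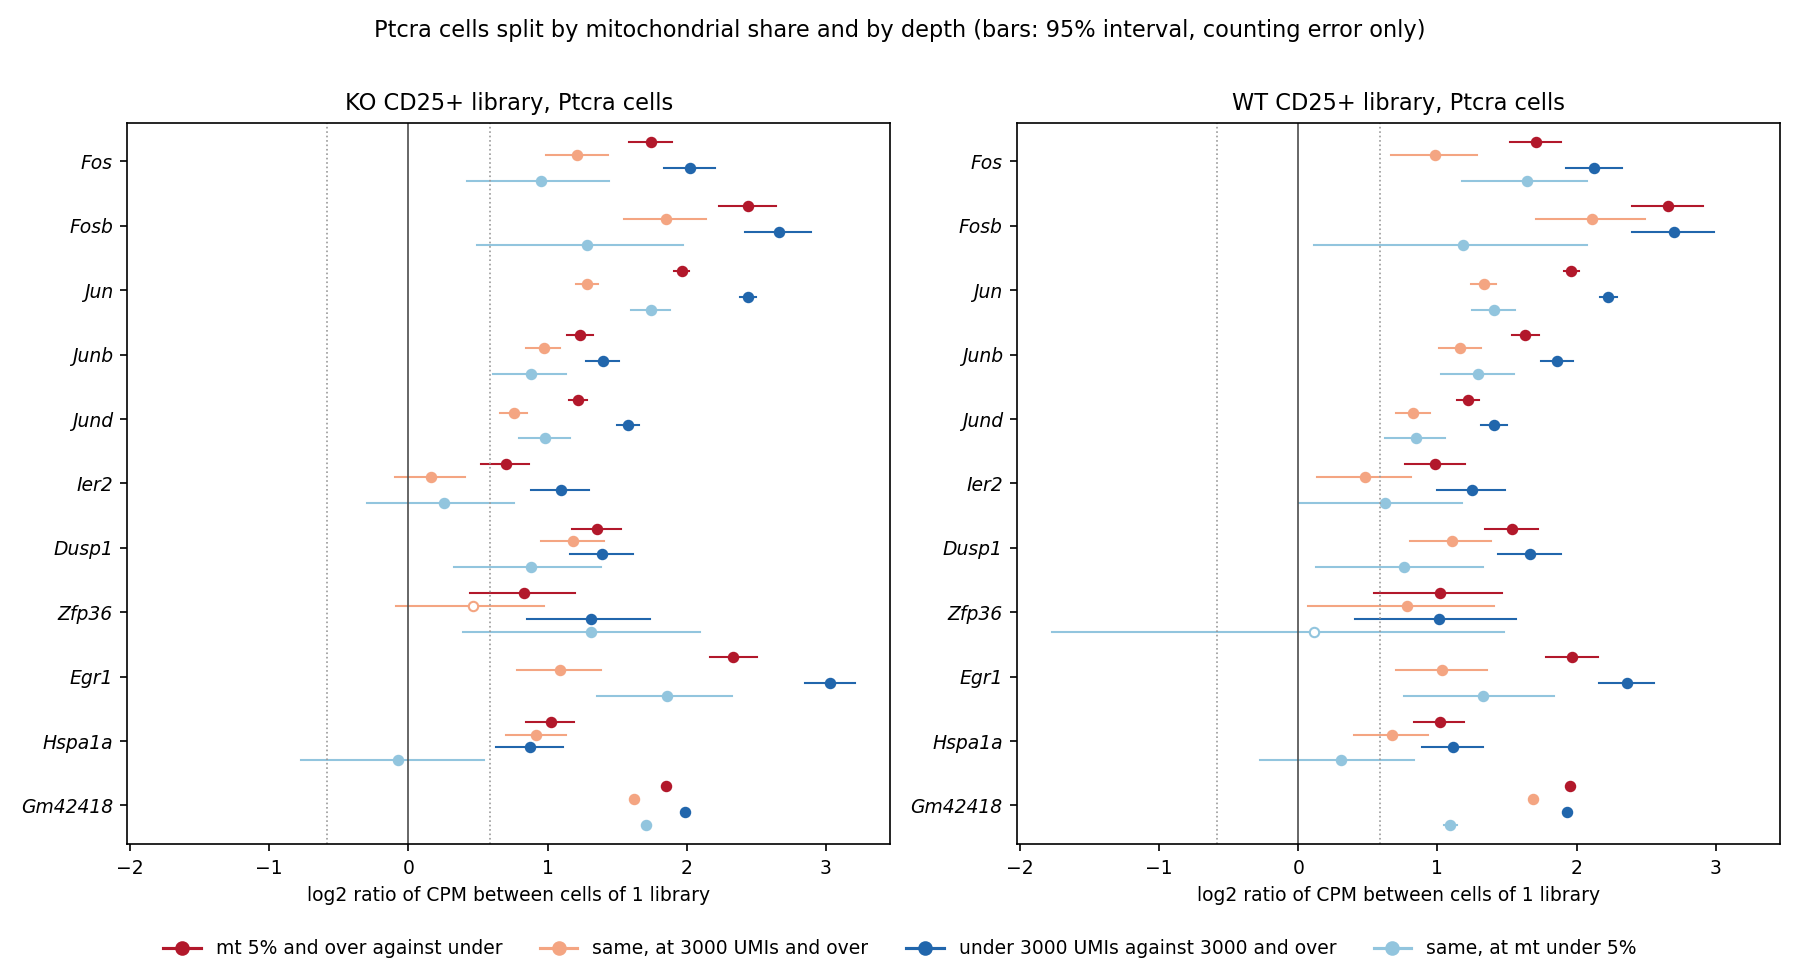
Log2 ratios in Ptcra cells of the knockout-labelled (left) and WT (right) CD25+ libraries, for 8 members and Egr1, Hspa1a and Gm42418, with 95% counting intervals: cells at 5% or more mitochondrial UMIs over cells under 5%, the same among cells of 3000 UMIs or more, cells under 3000 UMIs over deeper cells, and the same among cells under 5%. Member points that passed the filter lie above 0 in all 4 settings; in the mitochondrial split Fosb had ratios of 5.43 and 6.31 and Ier2 1.62 and 1.98.

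The splits gave no such common shift in other CD4 cells of the WT CD25- library. There were 78 cells at 5% or more mitochondrial UMIs, against 1001 under it (medians of 1880 and 6202 UMIs). Jun was 1.93-fold higher (1.20 to 2.96) there and Fosl2 higher (42.9 against 5.41 CPM, 7 against 36 UMIs), while Jund was lower (208.3 against 599.4 CPM, ratio 0.348) and Ier2 had a ratio of 0.656. So 2 of 8 were higher and 2 lower, where 49.1% and 23.9% of all genes were, and Fosl2 entered, here and in the split by UMI count, only through the cells where it was high. Under 3000 UMIs, 4 of 8 were higher (Jun 2.19-fold, Fos 1.80-fold, Dusp1 2.32-fold and Fosl2 8.51-fold) and Jund (0.363) and Ier2 (0.491) lower, where 47.1% and 23.1% of all genes were. Split at 4000 UMIs, the count of 6 became 3.

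Foxp3 cells of the CD25+ gate could be split by UMI count only, since fewer than 50 had a high mitochondrial share. Jun had 318 CPM below 3000 UMIs against 151.9 CPM above in the knockout-labelled library (2.09-fold) and 333.2 against 188.7 CPM in the WT library (1.77-fold). Junb (1.67 and 1.81) and Zfp36 (2.56 and 2.06) were also higher in both, Jund (1.54) and Ier2 (2.01) in the knockout-labelled library, and Fos was even (0.917 and 1.01). This made 5 of 7 and 3 of 7 higher, where 30.4% and 19.9% of all genes were. The splits of the remaining classes had fewer than 50 cells on a side.

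Last, the members were set beside TCR-response and heat shock transcripts of the same cells. Cells were thinned to 1500 UMIs and parted by a UMI of Egr2, Nr4a3, Tnfrsf9 or Cd69, all induced by TCR signals, or by a UMI of Hspa1a or Hspa1b. TCR-response UMIs were found in 22.6% and 18.2% of other CD4 cells of the knockout-labelled and WT CD25- libraries, in 49.8% and 44.3% of those of the CD25+ libraries, in 34.1% and 36.2% of CD25+ Foxp3 cells and in 8.89% and 9.28% of Ptcra cells. Heat shock UMIs were found in 8.71% and 8.94% of other CD4 cells of the CD25- libraries and in 8.32% and 15.2% of Ptcra cells.

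In other CD4 cells of the CD25- gate Fos was higher where TCR-response transcripts were found, on few UMIs. It had 56.2 CPM in cells with them against 15.2 CPM in cells without in the knockout-labelled library (14 against 13 UMIs, ratio 3.69, 1.61 to 8.53), and 62.8 against 31.0 CPM in the WT library (18 against 40 UMIs, ratio 2.03, 1.10 to 3.62). Dusp1 had ratios of 1.58 (0.832 to 2.87) and 2.23 (1.49 to 3.28), and Ier2 1.42 and 1.54 (1.17 to 2.00 in the WT library). In the knockout-labelled library Fos passed the filter only through the cells where it was high, and thinned to 3000 UMIs its ratio there was 1.59 (0.894 to 2.80). In the WT library the ratio at that depth was 2.21 (1.37 to 3.55), and Fos then entered only through the cells where it was high. Jun did not share this, with ratios of 1.37 and 0.786, and neither did Jund, with 0.706 and 0.731. Of 7 members, 2 and 3 were higher, where 14.1% and 12.9% of all genes were. Nr4a1, not used in the split, was 6.08-fold and 16.0-fold higher.

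The same cells parted by heat shock transcripts gave 0 of 7 members higher in the knockout-labelled library, where 15.7% of all genes were, and 2 of 7 in the WT library, where 15.9% were. The count in the WT library consisted of Jun (1.56, 0.878 to 2.61) and Dusp1 (1.51, 0.833 to 2.57), whose intervals include 1. Fos had 0 UMIs in the 64 heat shock cells of the knockout-labelled library and 27 in those without. Nr4a1 was lower in the heat shock cells, with ratios of 0.186 in the knockout-labelled and 0.0441 in the WT library. These ratios rest on few UMIs, since the heat shock cells numbered only 64 and 94 at 1500 UMIs each. In CD25+ other CD4 cells the TCR-response split gave 1 of 5 (Dusp1, 1.75) and 1 of 6 (Ier2, 1.82) members higher, where 18.1% and 13.9% of all genes were, and in CD25+ Foxp3 cells 0 of 6 and 1 of 7 (Dusp1, 1.74), where 11.7% and 10.6% were.

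Ptcra cells with TCR-response transcripts had more of every member that entered. Fos had 178.5 against 48.4 CPM in the knockout-labelled (3.69-fold, 3.05 to 4.44) and 182.9 against 64.4 CPM in the WT library (2.84-fold, 2.30 to 3.49), and Jun 1150 against 464.1 CPM (2.48-fold) and 1420 against 705 CPM (2.01-fold). Ratios of the others were 3.45 and 2.78 for Fosb, 2.80 and 1.65 for Zfp36, 1.83 and 2.18 for Dusp1, 1.81 and 2.02 for Junb, 1.76 and 1.80 for Ier2 and 1.68 and 1.57 for Jund. All 8 were higher in both libraries, where 5.92% and 6.94% of all genes were, and Zfp36 entered only through the cells where it was high. The cells with TCR-response transcripts were also shallower before thinning (medians of 4879 and 5252 UMIs against 6146 and 6167) and higher in Gm42418 (1.72 and 1.54) and Hspa1a (1.74 and 1.55). Their median mitochondrial share was 3.53% and 3.22%, against 3.01% and 2.92% in cells without. Thinned to 3000 UMIs, which leaves out the shallow cells, 3 of 7 members in the knockout-labelled (Fos 2.01, Fosb 2.21 and Jun 1.68) and 2 of 7 in the WT library (Fos 1.97 and Fosb 1.91) were higher, where 0.922% and 0.887% of all genes were. Fosb entered at that depth only through the cells where it was high.

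The Ptcra cells were also parted by heat shock transcripts. Jun had 798.3 against 500.3 CPM in the knockout-labelled (1.60-fold) and 1097 against 712.9 CPM in the WT library (1.54-fold). Fos had ratios of 1.42 and 1.87, Zfp36 1.61 and 1.85, and Fosb 1.26 and 2.17. In total, 2 of 8 and 4 of 8 members were higher, where 2.67% and 1.6% of all genes were, Zfp36 in both libraries having entered only through the cells where it was high. Thinned to 3000 UMIs, Fos (1.51) and Fosb (1.66) in the knockout-labelled and Fos (1.67) in the WT library were higher, 2 of 7 and 1 of 7, where 0.381% and 0.455% of all genes were. At that depth Fosb in the knockout-labelled library entered only through the cells where it was high (32.26 against 19.42 CPM), so it had to differ in that direction. The difference between the TCR-response and heat shock splits was not tested.

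**Figure D4:**
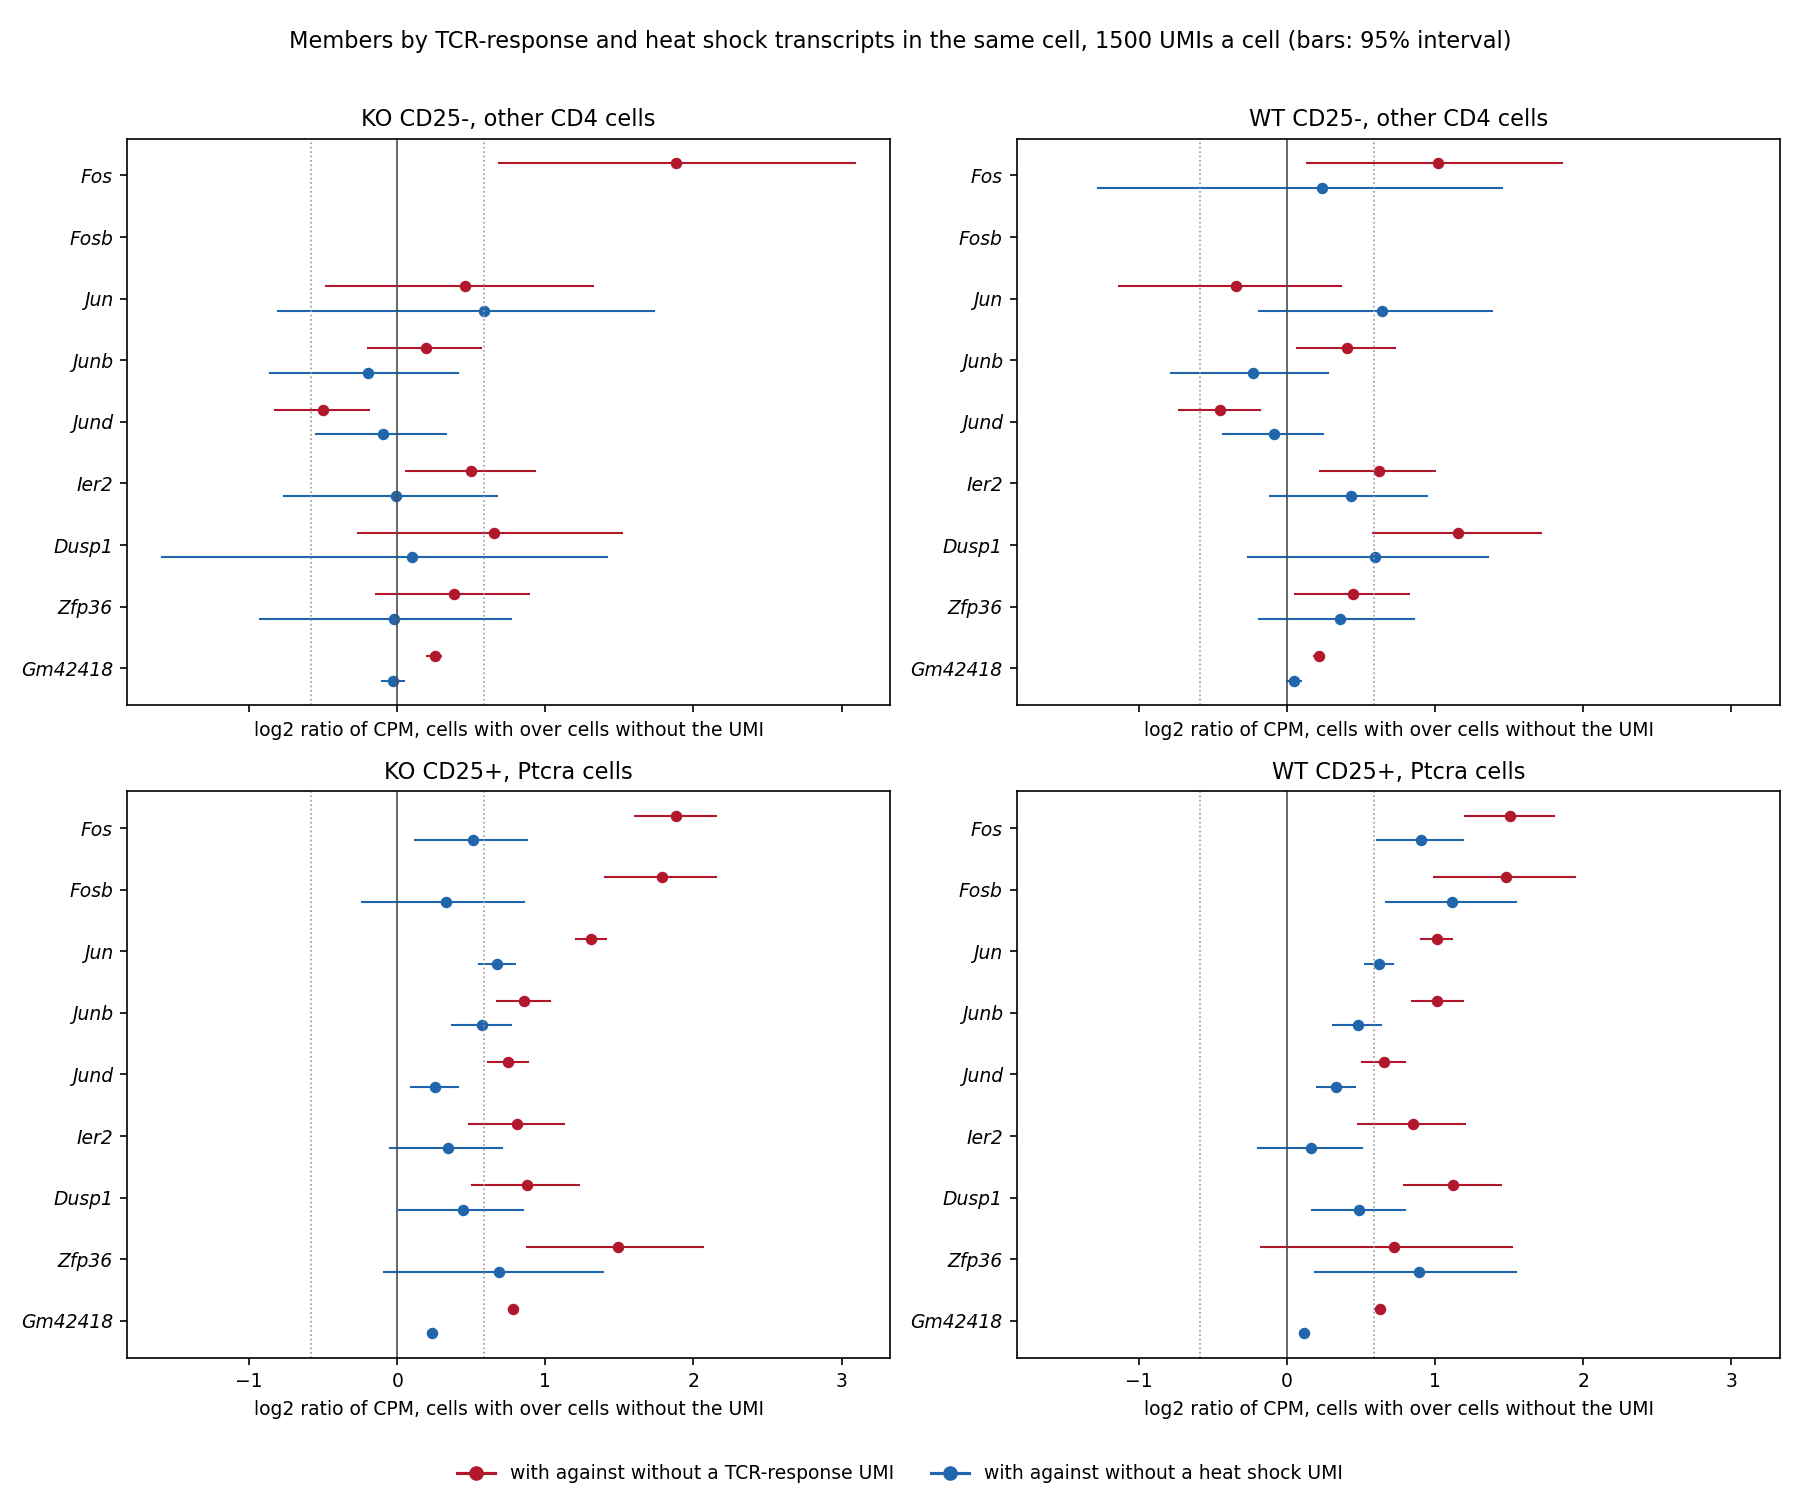
Log2 ratio of cells with over cells without a TCR-response UMI (red) and with over without a heat shock UMI (blue), thinned to 1500 UMIs, for 8 members and Gm42418, with 95% counting intervals. Panels show other CD4 cells of the knockout-labelled and WT CD25- libraries and Ptcra cells of the knockout-labelled and WT CD25+ libraries; in Ptcra cells the red member points stand between ratios of 1.57 and 3.69.

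Genes of the same pathways, on lists partly sharing members such as Nr4a1, Egr2 and Cd69, showed how widely each contrast ran. Of 23 TCR-response genes, 19 of 20 that entered were higher in other CD4 cells than in Ptcra cells of the knockout-labelled library and 16 of 19 in the WT library, and Myc, a growth regulator, was lower in both (log2 ratios -1.43 and -1.59). Over all genes 14.9% were higher and 19.1% lower in the knockout-labelled library, and 15.5% and 20.7% in the WT library. Only 7 of the 23 TCR-response genes reached 20 CPM in Ptcra cells of either library. Most of those counted thus entered only through the other CD4 cells, and the filter set their direction. Other immediate-early genes, a list of 32, gave 17 higher and 6 lower of 26, and 14 and 6 of 25. Klf2, a quiescence and egress factor, was highest (7.03 and 7.27) and Socs3, a cytokine signalling inhibitor, lowest (-4.19 and -3.59). Further AP-1 family bZIP factors, a list of 21, gave 4 higher and 2 lower of 12 in the knockout-labelled and 4 and 3 of 12 in the WT library, with Bach2, a repressor in lymphocytes, highest (3.73 and 4.00). MAP kinase genes and their upstream factors, a list of 18, gave 4 higher and 0 lower of 17, and 2 and 1 of 17, led by Rasgrp1, which activates Ras after TCR signals (2.30 and 2.20). Only 8 of the 21 bZIP factors and 18 of the 32 other immediate-early genes reached 20 CPM in Ptcra cells of either library. Some of those counted on these 2 lists thus also entered only through the other CD4 cells, and the filter set their direction.

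Between the knockout-labelled and WT libraries, 0 of 17 MAP kinase pathway genes passed 1.5-fold in CD25+ Foxp3 cells, CD25+ other CD4 cells or CD25- other CD4 cells, and 0 of 16 in Ptcra cells. In CD25- Foxp3 cells, where 12.2% of all genes were higher and 14.1% lower, 1 MAP kinase pathway gene was higher and 3 lower of 15, TCR-response genes gave 4 higher and 1 lower of 13, and other immediate-early genes 7 higher and 4 lower of 19. All genes gave 6.03% higher and 3.58% lower in CD25+ Foxp3 cells, 3.34% and 3.86% in CD25+ other CD4 cells, 2.3% and 1.74% in Ptcra cells and 2.51% and 0.949% in CD25- other CD4 cells. Of other immediate-early genes, 6 of 23 were lower and 1 higher in CD25+ Foxp3 cells, 2 of 18 were lower in Ptcra cells, led by Egr1 (-0.73), and 2 were higher and 2 lower of 25 in CD25+ other CD4 cells. TCR-response genes gave 5 of 19 lower in CD25+ Foxp3 cells, with Cd83 lowest (-0.83), 3 of 20 higher in CD25+ other CD4 cells, with the chemokine gene Xcl1 at 541.4 against 154.3 CPM, and 3 of 16 higher in CD25- other CD4 cells, with the costimulatory receptor gene Tnfrsf9 at 55.3 against 26.2 CPM. In the mitochondrial split of Ptcra cells, 13 of 19 and 16 of 22 other immediate-early genes were higher in the knockout-labelled and WT libraries and 0 lower, beside 25.4% and 25.7% higher over all genes. TCR-response genes gave 6 of 10 higher and 0 lower in both, with Cd69 at 156.9 against 37.62 CPM in the WT library. Over all Ptcra cells only 7 TCR-response and 18 other immediate-early genes reached 20 CPM in either library. The others that entered this split did so through 1 side of it only, which set their direction. Heat shock genes divided in that split, with 4 higher and 3 lower of 11, and 3 and 4 of 11: Hspa1b was highest (1.18 and 1.12) and Hspd1, a mitochondrial chaperonin, lowest (-1.31 and -1.88).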

How the data were processed

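Droplet single-cell RNA libraries (10x, 5′ chemistry v2) were measured in 4 sorted thymocyte samples. The authors deposited UMI counts per gene and cell barcode as filtered matrices. The aligner was Cell Ranger 6.2.1 with mm10 per the submitters' processing notes and 6.1.2 per the file headers. Of gene annotation and cell calling, the sources used here say nothing. The labels' staining list names CD74 where the gate names CD73. Cells with at least 500 genes and under 10% mitochondrial UMIs were kept, and the cells scored highest by Scrublet (0.8% per 1000 barcodes) were removed as likely doublets. Each gene's counts were added up for a library and class and divided by their total (CPM, with exact Poisson intervals). Ratios carry exact conditional binomial intervals and shares exact Clopper-Pearson intervals, all at 95%. A count of 0 was given a floor of 3 counts. Shares and same-cell splits were taken after thinning each cell to 1500 UMIs, with shallower cells left out. The code was tested on simulated data. Versions were python 3.11.15, numpy 2.4.6, scipy 1.17.1, pandas 2.3.3 and scanpy 1.11.5.

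The members, gene lists and comparisons were chosen with earlier results of these data known. All 10 members were named; from each list the genes with the highest and lowest ratio among those with at least 20 UMIs were eligible, and Gm42418, Nr4a1, Egr1, Hspa1a, Hspa1b and the mitochondrial share were given for the comparisons between classes, gates and genotypes. Genes of like pattern were the 10 with the highest Pearson r of log2(CPM + 5) with the summed members. Alternatives changed the doublets, gene minimum, mitochondrial cap, total, centring, cell weights, fold, class rules, filter and cells kept. Subsets of Foxp3 cells, without Ptcra and with Cd4, were added after seeing the data. No cells were compared across libraries as replicates. Values cover depths of 11159298 to 68989300 UMIs a library, and PCR copies are collapsed by UMI.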

Additional observations from a re-analysis of the deposited data

How the results depend on the processing

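No paired analysis was possible because each group had 1 library, and for the same reason no replicate could be left out. Of 342 alternative values of the 30 member ratios past 1.5-fold in 11 comparisons, 304 kept direction and 1.5-fold, 35 kept direction only and 3 reversed: Jun, knockout-labelled over WT, CD25- Foxp3 cells, came to log2 0.75 with at least 2 Foxp3 UMIs, and Jun, CD25+ over CD25-, WT other CD4 cells, to 0.12 with doublets kept and 0.65 with either Cd4 or Trac admitted. The causes were not tested. Of 165 alternative counts of members past the threshold, 133 were within 1.5 times the reported count. A 2-fold threshold gave 0 for knockout-labelled over WT in CD25+ Foxp3 (reported 3), Ptcra (1) and CD25- other CD4 cells (1), 0 for CD25+ over CD25- in the knockout-labelled (3) and WT pair (2), and 1 for Foxp3 over other CD4 cells in the knockout-labelled (3) and WT library (4). For knockout-labelled over WT, CD25+ Foxp3 cells gave 1 in place of 3 with at least 2 Foxp3 UMIs, without Ptcra cells or with Cd4, CD25- Foxp3 cells gave 2 in place of 1 with at least 2 Foxp3 UMIs or with Cd4, CD25+ other CD4 cells gave 1 in place of 0 with either Cd4 or Trac admitted or a filter of 5 CPM, CD25- other CD4 cells gave 0 in place of 1 with either admitted, and Ptcra cells gave 0 in place of 1 with no mitochondrial cap, the reduced total, median centring, equal cell weights or at least 2 Ptcra UMIs. CD25+ over CD25- in WT gave 1 in place of 2 with equal cell weights, Foxp3 over other CD4 cells in the knockout-labelled library 5 in place of 3 with the 5 CPM filter, and the WT CD25- UMI split 3 in place of 6 at 4000 UMIs. At 3000 thinned UMIs the TCR-response split gave 3 in place of 8 and 2 in place of 8 in Ptcra cells of the knockout-labelled and WT libraries, 4 (3 higher, and Jund lower at log2 -0.60) in place of 1 and 3 (all higher) in place of 1 in their CD25+ other CD4 cells, and 1 (Fos, lower at log2 -0.72) in place of 0 and 2 (both higher) in place of 1 in their CD25+ Foxp3 cells. At that depth Fosb in Ptcra cells and Fosl2 in WT CD25+ other CD4 cells entered only through the cells with the UMI. The heat shock split gave 1 in place of 4 in WT Ptcra cells, and 1 in place of 0 and 1 in place of 2 in other CD4 cells of the knockout-labelled and WT CD25- libraries. Depth limits Atf3, Fosb and Fosl2 outside the classes where they had UMIs, and every member in CD25- Foxp3 cells.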

Other observations

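The summed CPM of the members was 1443 in Foxp3 cells, 920.8 in other CD4 cells and 1001 in Ptcra cells of the knockout-labelled CD25+ library, and 1827, 1198 and 1325 CPM in the same classes of the WT CD25+ library. In the CD25- libraries it was 1454 and 1275 CPM in Foxp3 and other CD4 cells of the knockout-labelled library and 1462 and 1396 CPM in those of the WT library. Over these 10 library-by-class points, which share libraries and depth, the genes whose log2 level was most like that of the summed members were Rabac1 (Pearson r 0.93), Ypel3 (0.93), Kbtbd11 (0.92), Ppp3ca (0.91), Selplg (0.91), Ppp1r12a (0.91), E4f1 (0.90), Crebbp (0.90), Nipbl (0.90) and Tpt1 (0.89), out of 6556 genes ranked. Ppp3ca encodes the catalytic subunit of calcineurin and Crebbp a histone acetyltransferase and coactivator. None of them is a member or on the lists of immediate-early or TCR-response genes.

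Between the gates, TCR-response genes were mostly higher in other CD4 cells of the CD25+ gate: 13 of 20 that entered were at least 1.5-fold higher in the CD25+ library and 1 lower in the knockout-labelled pair, and 11 of 19 were higher in the WT pair. Other immediate-early genes divided, with 6 higher and 8 lower of 26 in the knockout-labelled and 5 and 3 of 25 in the WT pair, and Gadd45b, a stress and growth-arrest gene, was highest (log2 ratio 2.64 and 2.56). Of 11 heat shock genes, 5 were higher and 2 lower in both pairs, with Hspd1 highest (1.55 and 1.29) and Hspa1b lowest (-2.06 and -1.10). Over all genes 13.4% were higher and 11.9% lower in the knockout-labelled pair, and 9.08% and 6.33% in the WT pair. Of the 23 TCR-response genes, 16 reached 20 CPM in other CD4 cells of either CD25- library. Some of those counted thus entered only through the CD25+ cells, where they were high. Gadd45b did so in both pairs, with 81.51 against 13.07 CPM in the knockout-labelled and 71.82 against 12.16 CPM in the WT pair. Hspa1b in the knockout-labelled pair entered only through the CD25- cells (11.86 against 49.44 CPM). In Foxp3 cells against other CD4 cells of the CD25+ gate, TCR-response genes gave 2 higher and 14 lower of 21 in the knockout-labelled and 4 higher and 9 lower of 22 in the WT library, and other immediate-early genes 9 and 8 of 26 and 8 and 6 of 24, where 11.8% and 12.1% of all genes were higher and lower in the knockout-labelled and 9.35% and 11.0% in the WT library.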
